A study of Mus musculus with 12 samples.

Results

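Of the S100 gene family, 8 genes were followed in monocytic myeloid-derived suppressor cells (M-MDSCs), immature monocyte-like cells sorted from mouse bone marrow at a young and an old age. They were S100a8, S100a9, S100a4, S100a6, S100a10, S100a11, S100a13 and S100a1, chosen by name from the 23420 genes of the deposited count table, and all 8 were among the 9742 genes tested. The cells had been sorted from male C57BL/6JNIA mice by the gate CD11b+Ly6G-Ly6Chi, and total RNA was sequenced with 1 library per mouse. The young group held 6 mice of 6 months (numbers 1, 2, 5, 6, 9 and 10) and the aged group 6 mice of 24 months (numbers 1, 2, 4, 5, 6 and 7), with no genetic change or treatment in either. The question was how the level of each S100 gene differed between the ages, mouse by mouse.

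S100 proteins are small proteins that carry a pair of calcium-binding EF hands, work mostly as dimers and change shape on binding calcium so that they dock onto partner proteins. S100a8 and S100a9 form calprotectin, the most abundant protein complex of the cytosol of neutrophils and also plentiful in classical monocytes, which binds zinc and manganese and, once released, acts on Toll-like receptor 4 and on the receptor for advanced glycation end products. The other members act mainly inside cells, where S100a10 and S100a11 bind annexins and S100a4 binds non-muscle myosin.

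Library totals were 8737941 to 16300374 fragments in aged and 4613239 to 9079237 in young mice, so 3 counts correspond to between 0.188 and 0.643 CPM (the field's depth-scaled count, here with TMM factors, which equalise library composition by trimmed means). Young mice 5 and 6 stood apart from the other 10 in the level of short genes. The median log2 deviation of 351 other genes no longer than 719 bases, the length of the longest member, was -0.67 in young mouse 5 and -0.73 in young mouse 6, against -0.19 to 0.03 in the other young mice and 0.13 to 0.40 in the aged mice. Every young library carried a lower sample number in the table than any aged library, so a batch that followed those numbers cannot be told apart from age.

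The markers of the gate were present, together with many transcripts of neutrophil granules. Itgam, which encodes CD11b, measured 2895 ± 297 CPM in aged and 3376 ± 118 CPM in young mice (SD, n = 6 each), and Ly6c2 lay between 605 and 799 CPM in aged and between 367 and 595 CPM in young mice. Ccr2, the chemokine receptor that defines classical monocytes, was at 31.3 ± 22.2 and 37.1 ± 14.3 CPM. Ngp, a neutrophil granule protein gene, was at 39630 ± 3370 and 30944 ± 4421 CPM, far above these monocyte genes. The summed CPM of the 11 neutrophil genes measured ranged from 95197 to 113730 in aged and from 74135 to 100490 in young mice. In aged mice 5 of the 11 were higher, as were 22.4% of all genes tested (edgeR, as below). After a correction for gene length 1 of the 11 was, and on the 8 mice with a replicate block 3. Cd177 had the smallest p of them (log2 fold change 0.37, adjusted p = 0.00344), Retnlg the largest rise (0.55, adjusted p = 0.0192; 0.02 with the length correction and 0.32, adjusted p = 0.0859, without young mice 5 and 6), and Csf3r the lowest value (-0.21, adjusted p = 0.200). The sorting gate leaves out Ly6G+ cells, which include mature neutrophils. The part of neutrophil transcripts in the S100 levels was not tested, and in bulk RNA more cells of a type and more RNA per cell cannot be told apart.

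All 8 genes lie on chromosome 3 of mm10 in a pair of stretches. S100a1, S100a13, S100a4, S100a6, S100a8 and S100a9 lie within 184658 bases, from the end of S100a1 at 90511034 to the start of S100a9 at 90695691. S100a11 (chr3:93520496-93526288) and S100a10 (chr3:93555117-93564645) follow after a gap of 2824804 bases. The block from first to last member holds 69 genes of the table. Only 9 of them were tested, the 8 members and Pglyrp4, a peptidoglycan recognition protein gene whose log2 fold change was -0.09 (SE 0.29, edgeR, adjusted p = 0.815). Each member has 3 exons in the table, apart from S100a13 with 4. S100a1 and S100a13 point away from each other with 104 bases between their starts. The 250 bases before the start of 5 members are shown because S100a8 and S100a9 carry most of the S100 counts, S100a6 and S100a11 differ in how far they moved, and S100a4 lies near S100a6 without moving with it. They are RefSeq sequences of GRCm38.p6, 5′ to 3′ on the strand of the gene, with matches to 5 searched motifs in capitals on either strand: TATAAA, TTGCNNAA (the CEBP motif), GAGGAA (the PU.1 core), TGANTCA (the AP-1 motif) and GGGCGG (the GC box).
S100a8, chr3:90668821-90669070, plus strand: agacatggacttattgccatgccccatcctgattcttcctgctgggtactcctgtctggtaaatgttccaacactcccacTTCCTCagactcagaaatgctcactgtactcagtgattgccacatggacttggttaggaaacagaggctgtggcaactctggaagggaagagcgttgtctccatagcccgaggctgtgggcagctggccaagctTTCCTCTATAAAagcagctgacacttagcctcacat
S100a9, chr3:90695722-90695971, minus strand: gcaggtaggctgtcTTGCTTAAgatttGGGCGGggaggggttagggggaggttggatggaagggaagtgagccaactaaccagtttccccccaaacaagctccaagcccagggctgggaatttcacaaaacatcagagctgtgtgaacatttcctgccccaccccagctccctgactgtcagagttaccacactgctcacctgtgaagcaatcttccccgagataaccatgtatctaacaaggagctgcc
S100a6, chr3:90612644-90612893, plus strand: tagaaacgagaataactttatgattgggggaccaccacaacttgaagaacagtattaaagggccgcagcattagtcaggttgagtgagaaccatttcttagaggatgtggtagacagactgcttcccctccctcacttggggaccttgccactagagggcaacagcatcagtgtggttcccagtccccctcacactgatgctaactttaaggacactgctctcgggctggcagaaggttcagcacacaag
S100a11, chr3:93520246-93520495, plus strand: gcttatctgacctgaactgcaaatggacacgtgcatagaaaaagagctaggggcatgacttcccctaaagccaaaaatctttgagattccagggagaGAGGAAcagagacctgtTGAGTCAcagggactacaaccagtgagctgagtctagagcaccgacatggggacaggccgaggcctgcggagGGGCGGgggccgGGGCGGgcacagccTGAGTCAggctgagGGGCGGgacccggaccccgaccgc
S100a4, chr3:90603520-90603769, plus strand: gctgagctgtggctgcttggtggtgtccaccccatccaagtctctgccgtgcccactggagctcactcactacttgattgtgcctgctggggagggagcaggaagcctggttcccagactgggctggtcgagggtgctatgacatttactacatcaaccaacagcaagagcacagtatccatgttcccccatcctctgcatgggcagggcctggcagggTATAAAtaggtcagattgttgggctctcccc

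A TATA box match was found in S100a8, from 30 to 25 bases before the start, and in S100a4, from 31 to 26 bases before it. Of 32851 windows of this length before RefSeq starts, 12.4% held one. S100a8 also held the PU.1 core in 2 places, both on the opposite strand, and the one nearer the start directly precedes its TATA box match without overlap. The PU.1 core stood in 23.3% of all windows. S100a9 held 1 match to the CEBP motif, at 236 to 229 bases before its start, which 9.56% of windows held, and 1 GC box, which 32.7% held. The window of S100a9 was taken before the RefSeq start at 90695721, whereas the table ends the gene at 90695691. S100a11 had the most matches of the 7 members whose window was searched, S100a10 not being among them, with 2 of the AP-1 motif (in 6.75% of windows), 3 GC boxes and 1 PU.1 core. No match was found in the windows of S100a6, S100a13 and S100a1. S100a8 and S100a9 shared no searched motif in these windows. A match is a run of letters and was not tested as a binding site.

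In every mouse S100a8 and S100a9 stood far above the rest of the family. Per kilobase of exon, which allows genes to be compared, S100a8 reached 91366 ± 12007 CPM per kb in aged mice (SD, n = 6) and 53730 ± 17123 in young mice. S100a9 followed with 43973 ± 4221 and 28164 ± 9474 CPM per kb. Together the calprotectin genes took 5.54 ± 0.543% of all counts in aged mice (4.66 to 6.07%) and 3.54 ± 1.02% in young mice (2.09 to 4.53%). By CPM, S100a8 ranked 2 among all tested genes in aged mice and 4 in young mice.

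S100a6 and S100a11 came next, at 1975 ± 396 and 1245 ± 168 CPM per kb in aged mice and at 905 ± 255 and 892 ± 249 in young mice. In young mice these neighbours overlapped almost completely (562 to 1109 for S100a6 and 578 to 1191 for S100a11), while in aged mice their ranges touched only at the edge (1468 to 2515 and 1040 to 1500). S100a13 with 27.3 ± 4.32, S100a1 with 17.3 ± 2.92, S100a4 with 11.8 ± 10.7 and S100a10 with 2.84 ± 1.96 CPM per kb completed the order in aged mice. S100a1 and S100a4 did not differ beyond their spread there, and in young mice S100a4 (9.68 ± 2.43) stood slightly above S100a1 (8.16 ± 1.98), again with overlapping ranges. S100a2, S100a7a and S100a3 had at most 11 counts in a library, S100a16, S100a14 and S100a5 had 6, 3 and 1 counts over all 12 libraries, and S100b, S100g and S100z had 0 counts. None of these 9 was tested.

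**Figure D1:**
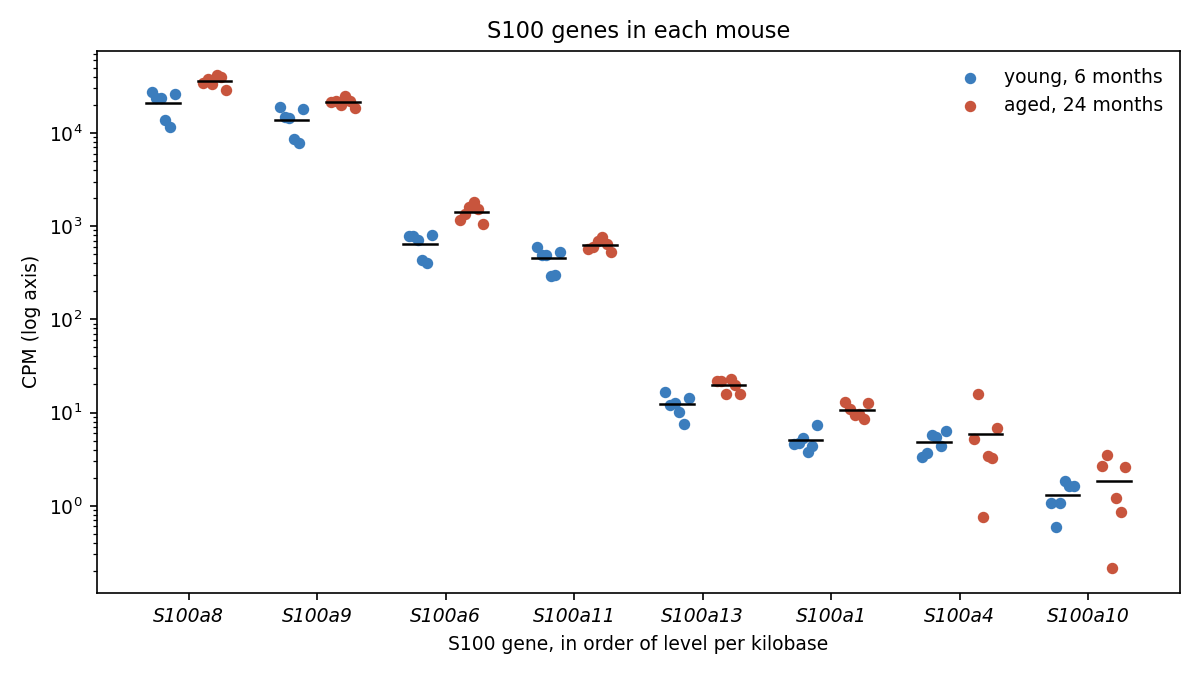
CPM of the 8 S100 genes in each mouse on a log axis, with 6 young (blue) and 6 aged (red) mice per gene and the mean as a black line. The points of the ages do not overlap for S100a8, S100a6 and S100a1, and the widest spread is that of S100a4 and S100a10 in aged mice.

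Between the ages, 6 of the 8 genes were higher in aged mice, none was lower and S100a4 and S100a10 did not pass the test (edgeR's quasi-likelihood test, Benjamini-Hochberg adjusted p below 0.05 over all genes tested). After a correction of each library for gene length, described further on, 2 of the 8, S100a6 and S100a1, were still higher. Of all genes tested, 45.4% passed, 22.4% higher and 23% lower in aged mice. The median log2 fold change of the 8 genes was 0.66, against 0.01 over all genes. For 3 of the 8 genes the 6 aged mice all lay above the 6 young mice, which 9.68% of all genes tested did, and 21.8% did not overlap in either direction. All 8 are short, 392 to 719 bases over exons, and of the 300 tested genes in that range of length 65% were higher in aged mice and 3.33% lower, with a median log2 fold change of 0.59. The members' share, 6 of 8, stands near that of other genes of their length.

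S100a8, the chain of calprotectin with the highest level, rose by 1.70-fold. Aged mice had 28965, 35652 and 41383 CPM (lowest, median and highest) and young mice 11517, 23773 and 27382 CPM. Every aged mouse was above every young mouse, and the lowest values were those of young mice 6 and 5. The log2 fold change was 0.77 (SE 0.20, adjusted p = 0.00563, edgeR). S100a9, its partner chain, rose by 1.56-fold, with 18622, 21603 and 24766 CPM in aged and 7832, 14699 and 18851 CPM in young mice. Here the ages touched, since young mouse 10 lay above aged mouse 7. The log2 fold change was 0.64 (SE 0.19, adjusted p = 0.0140, edgeR). Without young mice 5 and 6 the differences shrank by more than 1.5 times, to 0.48 for S100a8 (adjusted p = 0.00286) and 0.36 for S100a9 (adjusted p = 0.0134, edgeR), and with the length correction they were 0.12 and 0.07 and did not pass. The coefficient of variation was larger among young mice, at 31.9% for S100a8 and 33.6% for S100a9, than among aged mice, at 13.1% and 9.60%. Without young mice 5 and 6 it was 7.15% and 13.04% in the other 4 young mice, so for S100a8 the order turned.

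S100a9 counts per S100a8 count stayed within a narrow band. The ratio was 0.601 in aged mice (0.545 to 0.643) and 0.650 in young mice (0.606 to 0.688), as back-transformed means of log2 ratios. The difference of -0.11 on the log2 scale gave p = 0.0476 in an exact two-sided permutation test over 12 mice, and 0.0714 after adjustment over the 3 ratios compared, so it did not pass. The raw p was also above 0.05 when aged mouse 2, 4, 5 or 6 or young mouse 6, 9 or 10 was left out (0.0541 to 0.0931).

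S100a6, or calcyclin, a member found in many cell types, differed between the ages about as much as S100a1 did. Which of them was the higher depended on the fit, with S100a1 at 0.92 and S100a6 at 0.87 on the log2 scale without young mice 5 and 6. Aged mice had 1056, 1439 and 1809 CPM and young mice 404.1, 743 and 798 CPM. The ages did not overlap, and young mice 5 and 6 were again the lowest. The 2.18-fold difference corresponded to a log2 fold change of 1.13 (SE 0.18, adjusted p = 3.15e-04, edgeR). S100a11, also called calgizzarin, which binds annexin A1, had 524, 618 and 756 CPM in aged and 291, 490.0 and 600.3 CPM in young mice. Young mice 10 and 9 lay within the aged range. Its log2 fold change was 0.48 (SE 0.16, adjusted p = 0.0253, edgeR), and it missed the threshold without aged mouse 5 (0.43, adjusted p = 0.0549) and without young mouse 6 (0.39, adjusted p = 0.0512), and was 0.23 without both young mice 5 and 6 (adjusted p = 0.0798). Of the 50-base stretches of S100a11 transcripts, 41.1% also occur in transcripts of 3 processed pseudogenes, so its counts are uncertain under the authors' filter on mapping quality.

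The ratio of S100a6 to S100a11 separated the ages completely. It was 2.24 in aged mice (2.01 to 2.39) and 1.44 in young mice (1.30 to 1.60). The difference of 0.64 on the log2 scale had an exact two-sided permutation p of 0.00216, the smallest that 6 against 6 mice can give. That p was 0.00649 after adjustment over the 3 ratios. This comparison was added after the data were seen, and the adjustment does not cover the choice of this pair among the members. Leaving out any 1 mouse gave differences from 0.61 to 0.67. Young mice 5 and 6, which were low for each gene alone, had ratios of 1.48 and 1.34, within the range of the other young mice.

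S100a13, which takes part in the export of proteins that lack a signal peptide, measured 15.7, 20.6 and 22.7 CPM in aged and 7.54, 12.4 and 16.5 CPM in young mice. Only young mouse 10 reached into the aged range. Its log2 fold change was 0.68 (SE 0.17, adjusted p = 0.00407, edgeR). S100a1, best known as a regulator of calcium handling in heart muscle, measured 8.43, 10.3 and 12.8 CPM in aged and 3.80, 4.65 and 7.28 CPM in young mice. The ages did not overlap, and the log2 fold change was 1.09 (SE 0.17, adjusted p = 1.92e-04, edgeR). S100a1 counts were 24 to 63 per library in young mice, so its values rest on few fragments. The ratio of S100a1 to S100a13 was 0.544 in aged (0.423 to 0.804) and 0.415 in young mice (0.281 to 0.581). This difference of 0.39 on the log2 scale did not pass (exact two-sided permutation p = 0.0844, the same after adjustment over the 3 ratios), and it gave p = 0.0346 without young mouse 6 (0.49). This ratio was also added after the data were seen.

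**Figure D2:**
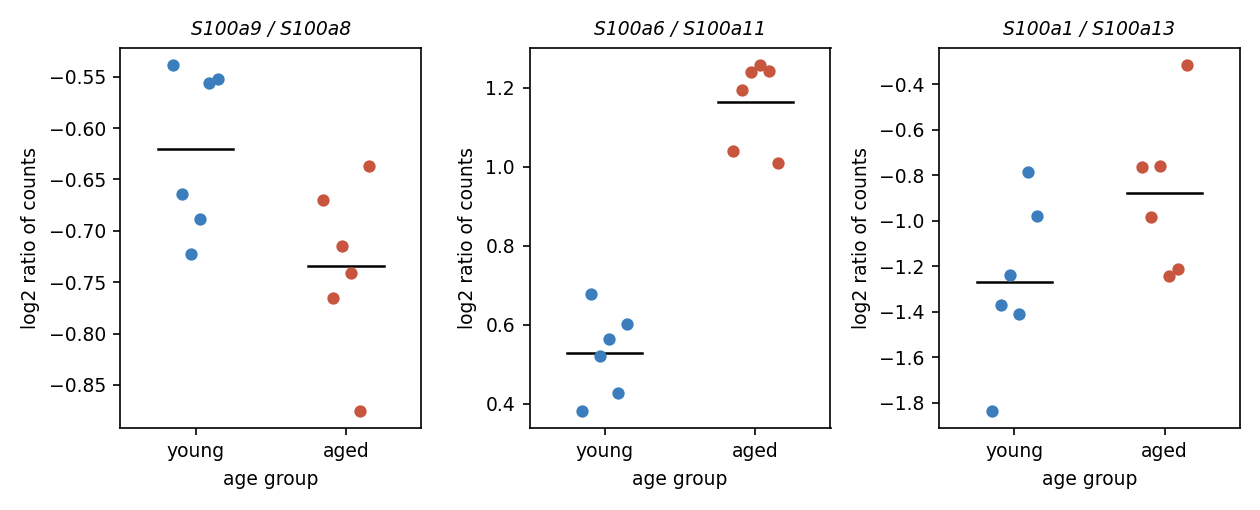
Log2 ratios of counts for 3 pairs of S100 genes in each young (blue) and aged (red) mouse, with the mean as a black line. The S100a6 to S100a11 ratio of every aged mouse lies above that of every young mouse, while the other ratios overlap between ages.

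S100a4, a motility factor that binds the heavy chain of non-muscle myosin, did not pass the test. Aged mice had 0.749, 4.33 and 15.97 CPM and young mice 3.31, 4.90 and 6.36 CPM. The whole young range lay inside the aged range, with aged mouse 4 the lowest and aged mouse 2 the highest of all 12. The log2 fold change was 0.27 (95% interval -0.71 to 1.26, adjusted p = 0.649, edgeR), and it became -0.28 without aged mouse 2 and 0.50 without aged mouse 4. S100a10, the calcium-insensitive partner of annexin A2, had 0.214, 1.92 and 3.50 CPM in aged and 0.586, 1.35 and 1.84 CPM in young mice. Aged mouse 4, with 2 counts, was again the lowest and aged mouse 2 the highest. Its log2 fold change was 0.44 (95% interval -0.54 to 1.42, adjusted p = 0.455, edgeR). These intervals are wide enough to hold both no difference and a difference as large as that of S100a6. The coefficient of variation of S100a4 was 90.6% among aged and 25.1% among young mice, and that of S100a10 69.0% and 36.4%.

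Across mice the genes fell into a group that moved together and a pair that did not move with it. After the mean of each age was subtracted, Pearson's r of log2 CPM over the 12 mice was 0.979 for S100a8 and S100a9, 0.961 for S100a6 and S100a11, and 0.948 for S100a9 and S100a11. S100a13 followed the same mice (r = 0.896 with S100a9). Within the ages its relation to S100a6 and S100a11 was 0.894 and 0.915 among the 6 young mice, and 0.285 and 0.293 among the 6 aged mice. S100a4 and S100a10 correlated with each other (0.903, and 0.775 without aged mouse 4) while S100a4 stood at -0.02 with S100a8. S100a10 stood at -0.25 with S100a8 (-0.48 without aged mouse 4), -0.20 with S100a9, -0.45 with S100a11 and -0.54 with S100a6, but at 0.07 with S100a13. Over the 12 mice S100a1 stood between them, at 0.145 to 0.428 with the other 7. Its relation to S100a6 differed in sign between the ages, with r = 0.644 among the 6 young mice and -0.851 among the 6 aged mice. The same held with S100a11 (0.60 young and -0.78 aged), S100a8 (0.62 and -0.68) and S100a9 (0.65 and -0.45). These differences between the ages were not tested. These values describe libraries that share depth and length effects, and no p was computed for them.

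**Figure D3:**
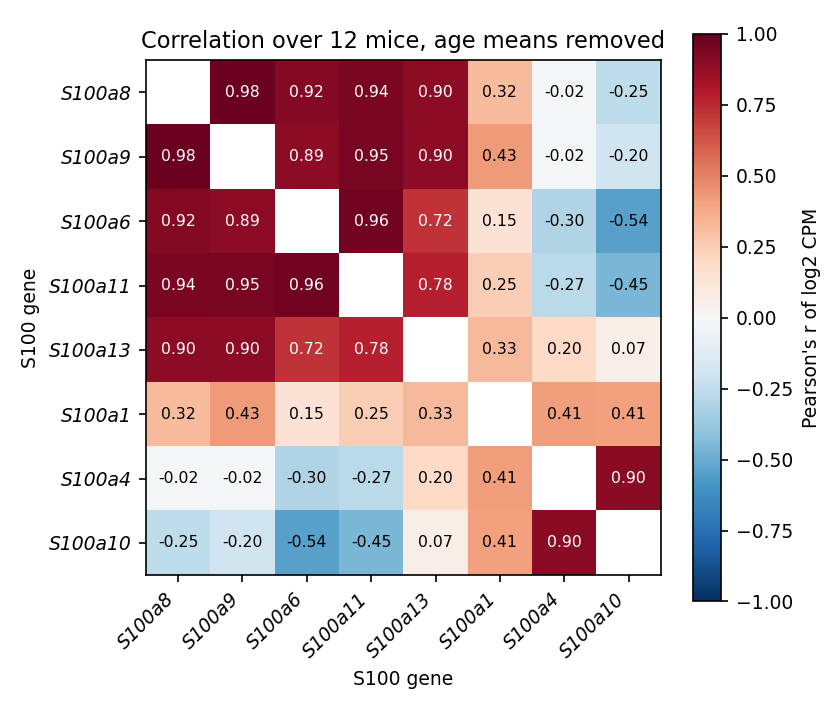
Pearson's r of log2 CPM between each pair of the 8 S100 genes over 12 mice after the mean of each age was subtracted, on a colour scale from -1 to 1. S100a8, S100a9, S100a6, S100a11 and S100a13 form a block of values from 0.72 to 0.98, which for S100a13 with S100a6 and S100a11 fall to 0.285 and 0.293 in aged mice alone, and S100a4 with S100a10 reaches 0.90.

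The tested genes most like S100a8 by the same measure were Tmsb4x (0.981), which encodes the actin-binding peptide thymosin beta 4, S100a9, Cd52 (0.978), which encodes a small surface glycopeptide of leukocytes, and the short non-coding RNAs Scarna10 and Rpph1 (0.977 each). Those most like S100a4 were Ms4a4c (0.933), Ubr7 (0.905), S100a10, the monocyte chemokine receptor gene Ccr2 (0.893) and F13a1 (0.889), the coagulation factor XIII A chain gene that monocytes express. Ccr2 was at 5.03 CPM in aged mouse 4 and 62.0 CPM in aged mouse 2, the same lowest and highest mice as for S100a4. F13a1 was at 2.57 and 42.4 CPM in those mice. Among the young mice Ccr2 was highest in mice 5 and 6, at 54.7 CPM each, where S100a4 was at 5.43 and 4.38 CPM. S100a4 was highest among them in mouse 9, at 6.36 CPM, where Ccr2 was at 36.8 CPM. The relation of S100a4 to Ccr2 was not examined within each age. Over the 12 mice, the mean removed, the summed monocyte markers correlated with S100a4 at 0.654 and with S100a10 at 0.747, and with S100a8 at -0.28. That sum is mostly Itgam, and single monocyte genes differed: Ly6c2, the gate's own gene, stood at 0.147 with S100a4, -0.02 with S100a10 and 0.857 with S100a8, and Csf1r at -0.01, -0.05 and 0.446. The part of monocyte transcripts in the S100a4 level was not tested.

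The members of the moving group followed the level of short genes in the same libraries. With the mean of each age removed, r with the median of the 351 other short genes was 0.950 for S100a8, 0.973 for S100a9, 0.901 for S100a13, 0.884 for S100a11 and 0.824 for S100a6. It was 0.517 for S100a1, 0.08 for S100a4 and -0.11 for S100a10. Those short genes took 3.34 to 4.40% of the counts in aged and 1.85 to 3.22% in young mice, and across all genes tested the log2 fold change decreased with length (Spearman's rho = -0.48, genes not being independent replicates). After each library was corrected for its dependence on gene length, S100a6 (log2 fold change 0.67, SE 0.13, adjusted p = 0.00154) and S100a1 (0.55, SE 0.15, adjusted p = 0.0121) remained past the threshold in edgeR. S100a8 (0.12, adjusted p = 0.368), S100a9 (0.07, adjusted p = 0.614), S100a13 (0.21, adjusted p = 0.150) and S100a11 (-0.10, adjusted p = 0.435) did not. In that fit 18.3% of all genes were higher and 16.6% lower in aged mice, and of the 300 genes of the members' range of length 14% were higher. The correction sets genes against others of their length, and the part of length itself in the members' rise was not tested.

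**Figure D4:**
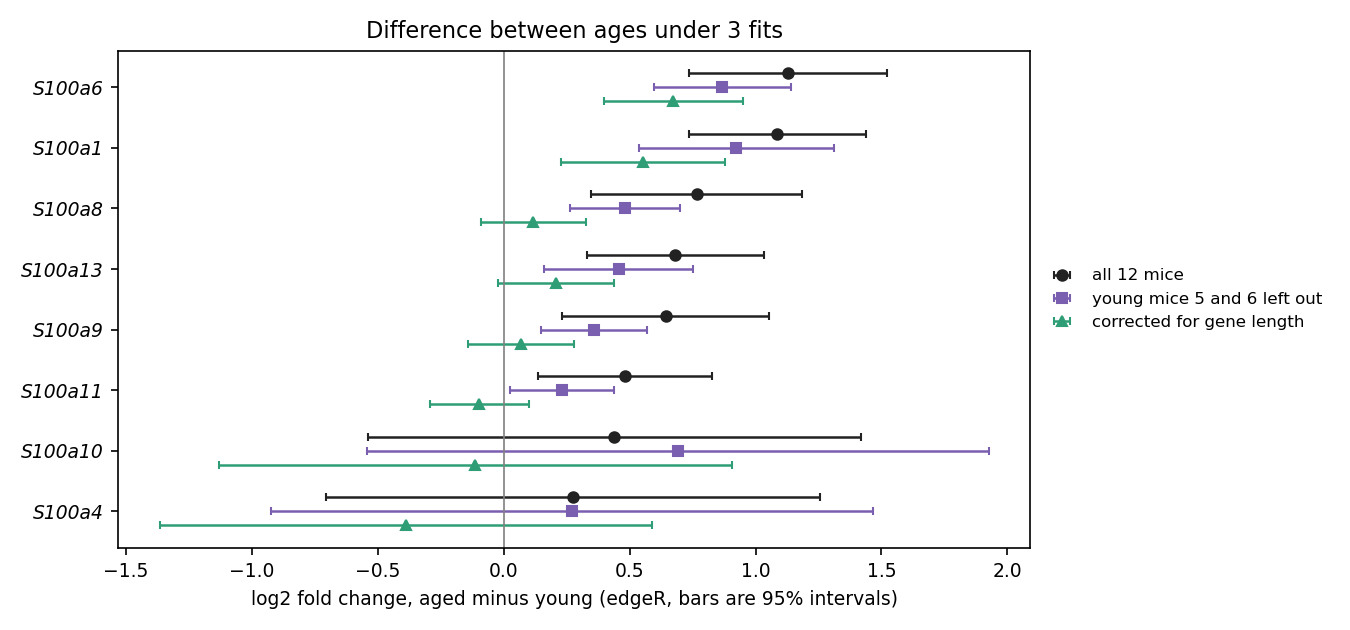
Log2 fold change of each S100 gene, aged minus young, with 95% intervals from edgeR, for all 12 mice (black), with young mice 5 and 6 left out (purple) and after correction for gene length (green). S100a6 and S100a1 lie above 0 in each fit, whereas the length-corrected intervals of S100a8, S100a9, S100a11 and S100a13 include 0.

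**Figure D5:**
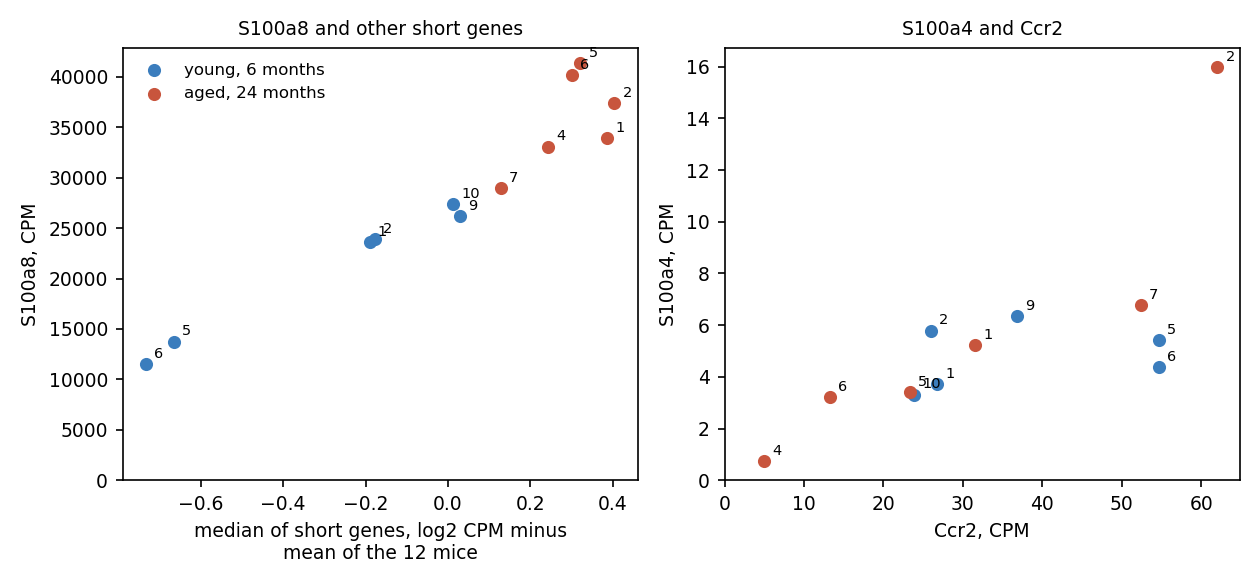
Left, S100a8 in CPM against the median log2 deviation of 351 other short genes in each mouse, and right, S100a4 against Ccr2, both in CPM, with mouse numbers beside the points (young in blue, aged in red). S100a8 is lowest in young mice 5 and 6, where the short-gene median was -0.67 and -0.73, and S100a4 is lowest in aged mouse 4 and highest in aged mouse 2, as Ccr2 is.

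Receptors through which extracellular S100 proteins act differed in both directions, with 5 of 11 higher in aged mice, 2 lower and 4 not passing (median log2 fold change 0.19). Cd14, a co-receptor of Toll-like receptor 4, measured 6.26 ± 2.02 CPM in young and 13.7 ± 1.24 CPM in aged mice (SD, n = 6) and rose by 1.11 on the log2 scale (adjusted p = 2.49e-04, edgeR). Myd88, the adaptor of Toll-like receptors, was also higher (0.46, adjusted p = 0.00208), as were Bsg (0.28, adjusted p = 0.0242) and Mcam (0.92, adjusted p = 0.00131). Bsg did not pass without TMM factors (adjusted p = 0.0639), with the length correction (0.255) or without young mouse 5 (0.0576) or 6 (0.0565), nor did Mcam with the replicate block (0.0528). Cd36, a scavenger receptor, had the largest log2 fold change, 4.0 (adjusted p = 0.00531), but aged mice ranged from 0.752 to 43.6 CPM, it was 2.51 without aged mouse 1, and it did not pass in limma-voom (2.61, adjusted p = 0.0740). Ager, which encodes the receptor for advanced glycation end products, fell by 0.99 on the log2 scale (adjusted p = 0.0215, edgeR). Its ages overlapped, and it did not pass without young mouse 5 (-0.72, adjusted p = 0.0703) or young mouse 6 (-0.77, adjusted p = 0.0649), and was at -0.27 (adjusted p = 0.358) without both. Alcam, an adhesion molecule, fell by 0.58 (adjusted p = 8.77e-05) with no overlap between ages. Tlr4 itself (0.17, adjusted p = 0.206), Ly96 (0.15, adjusted p = 0.591), Emb (0.19, adjusted p = 0.230) and Nptn (-0.03, adjusted p = 0.731) did not pass.

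Among 13 intracellular partners, 6 were higher and 4 lower in aged mice (median 0.24), beside 22.4% and 23% of all genes tested. With the length correction 4 of the partners were higher and 1 lower. Of the 6 annexin genes among them 5 were higher. Anxa1, the partner of S100a11, measured 4324 ± 450.1 CPM in young and 5992 ± 576 CPM in aged mice (SD, n = 6) and rose by 0.47 on the log2 scale (adjusted p = 0.00107, edgeR), and Anxa2, the partner of S100a10, measured 945 ± 165 and 1302 ± 147 CPM (0.46, adjusted p = 0.00448). Anxa5, Anxa7 and Anxa11 were also higher, by 0.44, 0.37 and 0.24 on the log2 scale. Sugt1, a co-chaperone that binds S100a6, was higher by 0.42 (adjusted p = 0.00475). Myh9, the myosin heavy chain that S100a4 binds, fell by 0.49 (adjusted p = 8.05e-04, edgeR), although S100a4 did not pass in either direction. Ahnak, a giant scaffold that binds S100a10 with annexin A2, fell by 1.39 (adjusted p = 0.0150), but did not pass without young mice 5 and 6 (-0.92, adjusted p = 0.121). Iqgap1 and Ppp5c fell by 0.34 and 0.49. With the length correction Ahnak (-0.54), Myh9 (-0.12), Iqgap1 (0.03), Anxa2 (0.23) and Anxa11 (0.19) did not pass. Anxa11 was also lost with the block and without aged mouse 5 or young mouse 5 or 6, and Ppp5c after thinning and without aged mouse 4, 5 or 6 or young mouse 5 or 6. Anxa6 (0.09), Cacybp (0.26, adjusted p = 0.0879), the calcyclin-binding protein gene, and Tubb5 (0.17) did not pass, although Cacybp did without young mouse 2 (adjusted p = 0.0320) and Tubb5 without aged mouse 4 (0.0486).

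No transcription factor known to act on the S100a8 and S100a9 genes was higher in aged mice, of 6 measured. Cebpb measured 101.0 ± 17.1 CPM in young and 75.2 ± 13.3 CPM in aged mice and fell by 0.43 on the log2 scale (adjusted p = 0.0124, edgeR). Cebpa (0.14), Cebpd (0.12), Cebpe (0.04), Hif1a (0.12) and Stat3 (-0.16) did not pass, but Stat3 passed as lower without TMM factors (-0.25, adjusted p = 0.0171), without aged mouse 7 (-0.20, adjusted p = 0.0412) and on the 8 mice with shared numbers, no block fitted (-0.26, adjusted p = 0.0422), and Cebpe passed as lower with the length correction (-0.24, adjusted p = 0.0174). The genes with which the study scored M-MDSCs include S100a8 and S100a9, and 8 of those 10 were higher in aged mice, 5 after the length correction. Ifitm1, an interferon-inducible membrane protein gene, changed most (2.39, adjusted p = 6.71e-05), while Cxcr2 (0.25, adjusted p = 0.129) and Il1b (-0.04, adjusted p = 0.900) did not pass. As the score holds 2 of the members, it is no independent measure of them.

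Markers of other cells moved with age beside the S100 genes. Of 8 tested genes of resident macrophages all were higher in aged mice, led by C1qc (3.32, adjusted p = 7.99e-04, edgeR), and the summed CPM of the 9 measured was 597 to 1528 in aged and 389 to 547 in young mice. C1qc ranged from 5.91 to 120.1 CPM in aged and from 2.89 to 5.92 CPM in young mice, so the ages met. The sum of 1528 CPM was that of aged mouse 1, and the next highest was 807 CPM in aged mouse 2. In limma-voom 5 of the 8 passed, and Slc40a1 did not pass without TMM factors (adjusted p = 0.0518) or without aged mouse 1 (0.0541) or young mouse 5 (0.0546) or 6 (0.0586). Of the promyelocyte genes 4 of 4 tested were higher, with Prtn3 at 1.54 (adjusted p = 9.54e-05), at sums of 33.3 to 47.7 against 19.7 to 31.9 CPM, and 2 passed after the length correction. Ms4a3 (0.44, adjusted p = 0.00851) was one of those lost (0.09). On the 8 mice with shared numbers 2 promyelocyte genes were higher with the replicate block and 3 without it. Of the 8 classical monocyte genes 3 were higher and 1 (Itgam) was lower, and the sums were 3473 to 4629 and 4094 to 4333 CPM. Itgam did not pass with upper quartile scaling, no filter, the length correction or the block, nor without aged mouse 1, 2, 4, 5 or 6 or young mouse 6, and after the length correction 1 of the 8 was higher. Ccr2 (-0.26), Csf1r (0.07), F13a1 (-0.36) and Fn1 (-0.60, adjusted p = 0.320) did not pass. With single mice left out Ccr2 ranged from -0.56 to -0.04, F13a1 from -0.74 to -0.13 and Fn1 from -0.99 to -0.39. Among 8 cycling-cell genes 2 were lower, with Mki67 at -2.01 (adjusted p = 1.34e-04), at sums of 422 to 907 and 720.0 to 1375 CPM, and 1 was lower after the length correction or without aged mouse 2, 4, 5 or 6 or young mouse 5 or 6. Ccnb1 had the highest value of the list (0.17, adjusted p = 0.315). The dendritic cell gene Clec9a, the 1 tested of its list, was lower (-2.45, adjusted p = 2.89e-05), at sums over its list of 0.749 to 2.33 and 3.12 to 7.74 CPM. Those sums were mostly Clec9a itself, at 0.830 ± 0.325 CPM in aged and 4.51 ± 1.46 CPM in young mice. The B cell gene Cd79b, the 1 tested of its list, did not pass (1.10, adjusted p = 0.0568; sums of 2.40 to 12.5 and 2.14 to 3.91 CPM). It passed in DESeq2 (adjusted p = 0.0442) and, in edgeR, without aged mouse 4 (0.0349), aged mouse 5 (0.0196) or young mouse 1 (0.0468). No erythroid or basophil gene was tested in the main fit, and Hba-a1 and Hba-a2 had 0 counts. The erythroid sums were 0.535 to 5.24 CPM in aged and 0 to 0.355 CPM in young mice, with Alas2 at 1.56 ± 1.27 and 0.143 ± 0.084 CPM. In DESeq2, and in edgeR with no filter, 2 erythroid genes were called higher. The basophil sums were 0.379 to 1.07 CPM in aged and 0.118 to 1.83 CPM in young mice. With the age means removed, the summed neutrophil genes correlated with S100a8 at 0.755 and with S100a9 at 0.834, and the summed cycling genes at -0.76 and -0.69. Of the highest genes in the neutrophil sum, Ngp stood at 0.670 and Ltf at -0.01 with S100a8, and Ltf at 0.574 with S100a4 and 0.665 with S100a10. S100a6 and the cycling genes stood at -0.89. Of the cycling sum, Mki67 alone made up 674 of 1375 CPM in young mouse 5 and 598 of 1348 CPM in young mouse 6. Mki67 stood at -0.84 with S100a8, and other single cycling genes were not examined in this way. The part of other cells in these results was not tested.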

How the data were processed

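Total RNA of sorted M-MDSCs from 12 mice was sequenced in stranded, paired-end libraries. The authors deposited 1 table of raw counts of fragments per gene made with featureCounts 2.0.0 on mm10, keeping fragments of mapping quality 60 or more. The aligner is not given in the sources used here. No normalization had been applied to the deposited counts, every column was matched to a mouse by its name, and no 2 libraries agreed within sampling noise. Ages were compared with edgeR 4.0.16 in R 4.3.3 (filterByExpr, TMM factors, quasi-likelihood test, Benjamini-Hochberg adjustment over all 9742 genes tested, threshold 0.05). Standard errors are the size of each log2 fold change divided by the root of its F value. CPM are counts scaled to the TMM-adjusted library total. Ratios between genes were compared with exact two-sided permutation tests over mice. Correlations used log2 CPM with a prior count of 2. Nothing in the labels gives separate sorts or preparations within a mouse. With 1 library per mouse, p-values rest on the spread between libraries, in which mouse, sort and preparation cannot be told apart.

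Alternatives were DESeq2 1.42.0, limma-voom (limma 3.58.1), other scalings and filters, thinning to the smallest total, a correction of each library for gene length (lowess, span 0.5), a replicate block and each mouse left out. The fits were tested on simulated data. The S100 genes and all gene lists were chosen with earlier results of these data known. Named were all 8 members, the other S100 genes with counts, the largest rise, largest fall and smallest p of each list, members of a list that did not pass where these were at most 5, and the 5 genes most like S100a8 and S100a4. Other genes of a list, and each extra value of a named gene, were added after their values were seen. Spi1 and S100a7l2 were not analysed here. The limits from 3 counts cover counting error only, and the 95% intervals of fold changes rest on the same spread between libraries, 1 per mouse.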

Additional observations from a re-analysis of the deposited data

How the results depend on the processing

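With DESeq2, limma-voom, other scalings and filters and thinning, 6 S100 genes were called higher and 0 lower, while the share of all genes called higher was 15.6% with DESeq2, 21.6% with limma-voom, 17.3% without TMM and 25.7% with upper quartile scaling. S100a4 and S100a10 were not tested with a minimum of 10 counts in every mouse, nor S100a10 after thinning. After the length correction 2 were called: S100a8 (0.12), S100a9 (0.0691) and S100a13 (0.21) were no longer past the threshold, and S100a11 (-0.10), S100a4 (-0.39) and S100a10 (-0.11) turned in sign without passing. With single mice left out the count was 5 or 6. The ranges over these 12 fits were 0.64 to 0.86 for S100a8, 0.52 to 0.76 for S100a9, 1.02 to 1.21 for S100a6, 0.38 to 0.59 for S100a11 (lost without aged mouse 5, 0.43, and without young mouse 6, 0.39), 0.57 to 0.80 for S100a13, 1.01 to 1.24 for S100a1, -0.28 to 0.50 for S100a4 and 0.19 to 0.66 for S100a10. S100a4 was also negative in limma-voom (-0.17). Without young mice 5 and 6, chosen after seeing the data, 5 were called, as were 14.1% of all genes as higher, and S100a11 was not (0.23, adjusted p = 0.0798, edgeR). The S100a9 to S100a8 difference ranged from -0.134 to -0.0851 and the S100a1 to S100a13 difference from 0.28 to 0.49 with single mice left out.

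Mice that share a number across ages (1, 2, 5 and 6) are different animals, and their deviations correlated at -0.14, -0.07, -0.24 and -0.25. With the replicate block on these 8 mice 6 members were called, as without it (S100a8 1.13 and 1.06, S100a6 1.36 and 1.33), and genes called in all went from 2088 higher and 2306 lower to 1586 and 1860.

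Without TMM factors 37.8% of all calls were higher, against 49.4% with them. Genes outside the family that turned in sign, none past the threshold afterwards unless given, included Ly96 (-0.40), Iqgap1 (0.0275), Camp (-0.0538), Lcn2 (-0.0635) and Cebpe (-0.24, adjusted p = 0.0174, edgeR) with the length correction, Cebpe (-0.0407) and Csf1r (-0.00284) without TMM, Nptn (0.00988) with upper quartile scaling, Il1b with the block (0.22) and on those 8 mice without it (0.23), Il1b without aged mouse 1, 4 or 7 or young mouse 2 (from -0.173 to 0.112 over all single mice left out), Anxa6 without aged mouse 4 (-0.0133; up to 0.175 without others) and Csf1r without aged mouse 1 (-0.0636; up to 0.174). The cause of these changes was not tested. Depth limits S100a10, S100a4 and S100a1 most, with as few as 2, 7 and 24 counts in a library.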
